A study of Mus musculus with 2 samples.

Results

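The genes examined are Cxcl1, Cxcl2, Cxcl3 and Cxcl5, which encode chemokines that attract neutrophils, and Cxcr2, the neutrophil receptor that these chemokines bind. They are 5 of the 32285 genes of the series, chosen by name, and all 5 were found in both libraries. The series measured single-cell RNA in the brain of NMOSD-like mice at 24 h. NMOSD, neuromyelitis optica spectrum disorder, is an autoimmune disease in which antibodies bind the water channel of astrocytes. The cells came from C57BL mice aged 8 to 13 weeks and were separated by CD45, the surface protein of leukocytes, into a CD45-positive and a CD45-negative library. Both libraries carry the disease model, and neither its induction nor the number of mice behind a library is stated in the sources used here. Each group is 1 library, no control library was analysed here, and no test between groups was possible.

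These chemokines carry a Glu-Leu-Arg motif before their paired cysteines and act on Cxcr2, which signals through inhibitory G proteins and moves neutrophils out of the blood and along a gradient. Cxcl1, Cxcl2 and Cxcl3 are immediate inflammatory genes that are induced through NF-kB, and their messenger RNAs are short-lived. Cxcl5 is known mainly as a product of epithelial cells. In mouse brain, endothelium and astrocytes are known sources of Cxcl1, and activated microglia and infiltrating neutrophils are known sources of Cxcl2.

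The 4 ligand genes lie on mm10 chromosome 5, on the plus strand and annotated as protein coding. Cxcl5 (ENSMUSG00000029371) spans 90759360 to 90761624, Cxcl3 (ENSMUSG00000029379) 90786103 to 90789600, Cxcl1 (ENSMUSG00000029380) 90891241 to 90893115 and Cxcl2 (ENSMUSG00000058427) 90903871 to 90905938. Cxcr2 (ENSMUSG00000026180) lies on chromosome 1, from 74153989 to 74161246 on the plus strand. The promoter table of RefSeq (GRCm38.p6) held 4 of the 5 genes, with Cxcl5 the one that was not matched. The stretches before the start of Cxcl1 (chr5:90891115-90891240), Cxcl2 (chr5:90903769-90903870) and Cxcl3 (chr5:90785971-90786100) are shown because these ligands share a run of 11 letters, the longest that the 3 windows have in common, and it holds a sequence to which NF-kB is known to bind. Capitals mark that run, GGGAATTTCCC, and the TATA-type letters ATAAAA.
Cxcl1: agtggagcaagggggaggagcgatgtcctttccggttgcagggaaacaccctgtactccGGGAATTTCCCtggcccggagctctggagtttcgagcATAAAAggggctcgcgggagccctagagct
Cxcl2: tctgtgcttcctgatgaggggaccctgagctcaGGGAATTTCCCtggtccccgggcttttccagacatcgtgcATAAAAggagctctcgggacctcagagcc
Cxcl3: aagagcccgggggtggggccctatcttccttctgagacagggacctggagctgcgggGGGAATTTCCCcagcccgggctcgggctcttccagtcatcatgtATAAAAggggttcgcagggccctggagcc
GGGAATTTCCC ended 61 bases before the RefSeq start in Cxcl1, 87 bases before it in Cxcl2 and 63 bases before it in Cxcl3. The RefSeq windows end at base 90891244 for Cxcl1, 90903898 for Cxcl2 and 90786100 for Cxcl3. The stretches shown for Cxcl1 and Cxcl2 stop earlier, just ahead of the gene starts given above. For these genes the RefSeq distances are therefore longer than the letters shown after the run, above all for Cxcl2. Searched on both strands of the 250 bases before each start, it was found in 14 of 32851 promoters (0.0426%), and ATAAAA in 17% of them. The Cxcr2 window held neither. The run was picked because the ligands share it, so its rarity is no test. A match describes letters, not binding.

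After filtering, 8432 of 8662 CD45-positive barcodes (97.3%) and 12817 of 14524 CD45-negative barcodes (88.2%) were kept, with 73960481 and 82577080 UMIs in all and a median of 6088.5 and 5412 UMIs per cell. A UMI (unique molecular identifier) stands for 1 captured transcript. Levels are given as CPM, the UMIs of a gene summed over a library or population, per 1000000 UMIs of the same cells. The 95% intervals beside them are exact intervals for counting error, and they do not cover the spread between mice or the clumping of UMIs in single cells. Cells were clustered without the 5 genes and named "-like" from marker lists, and 11 populations in each library had at least 50 cells. Type 2 innate lymphoid cell-like cells are called ILC2-like. A population of 154 CD45-positive and 10 CD45-negative cells carried microglia and neutrophil markers together and is called double-marker. A CD45-negative cluster of 172 cells with pericyte markers, whose 5 leading genes were Il6, Il11, Ccl11, Nts and Cxcl1, is called the Il6-led cluster. The libraries shared 27 barcodes, of which 25 were kept, and these held 346 Cxcl2, 21 Cxcl3, 19 Cxcl1, 1 Cxcr2 and 0 Cxcl5 UMIs.

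The genes divided between the libraries. Cxcl2 was at 504 CPM (499 to 509) in CD45-positive and 71.8 CPM (70.0 to 73.7) in CD45-negative cells, 7.02-fold higher in CD45-positive (6.83 to 7.22). Cxcl3 was at 25 CPM in CD45-positive and 6.42 CPM in CD45-negative cells, 3.89-fold higher in CD45-positive (3.53 to 4.29). Cxcr2 was at 13.9 CPM in CD45-positive and 2.39 CPM in CD45-negative cells, 5.83-fold higher in CD45-positive (5.00 to 6.83). Cxcl1 and Cxcl5 lay the other way. Cxcl1 was at 4.56 CPM in CD45-positive and 19.4 CPM in CD45-negative cells, a log2 ratio (CD45-positive level divided by the CD45-negative one) of -2.09 (-2.27 to -1.92). Cxcl5 had 9 UMIs in the whole CD45-positive library, or 0.122 CPM, against 639 UMIs and 7.74 CPM in the CD45-negative library, a log2 ratio of -5.99 (-7.13 to -5.06). Thus 3 of the 5 genes were at least 2-fold higher on the CD45-positive side, as were 16.5% of the 18379 genes with at least 20 UMIs. The other 2 were at least 2-fold higher on the CD45-negative side, as were 40.9% of genes. The median log2 ratio of the 5 genes was 1.96, against -0.58 over all genes.

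Leukocyte-like cells in the CD45-negative library carried most of 3 genes there. The 166 such cells, 1.30% of the library, held 86.8% of the Cxcl2, 95.3% of the Cxcl3 and 83.8% of the Cxcr2 UMIs. The same cells held 2.24% of the Cxcl1 and 0.156% of the Cxcl5 UMIs. The remaining CD45-negative cells had Cxcl2 at 9.63 CPM (8.96 to 10.3), Cxcl3 at 0.308 CPM, Cxcr2 at 0.394 CPM, Cxcl1 at 19.3 CPM and Cxcl5 at 7.86 CPM. With these leukocytes left out of the CD45-negative library, an alternative chosen after seeing the data, the log2 ratio was 5.71 for Cxcl2, 6.34 for Cxcl3 and 5.14 for Cxcr2. These 3 ratios were larger than those of the library totals, which were 2.81, 1.96 and 2.54.

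**Figure D1:**
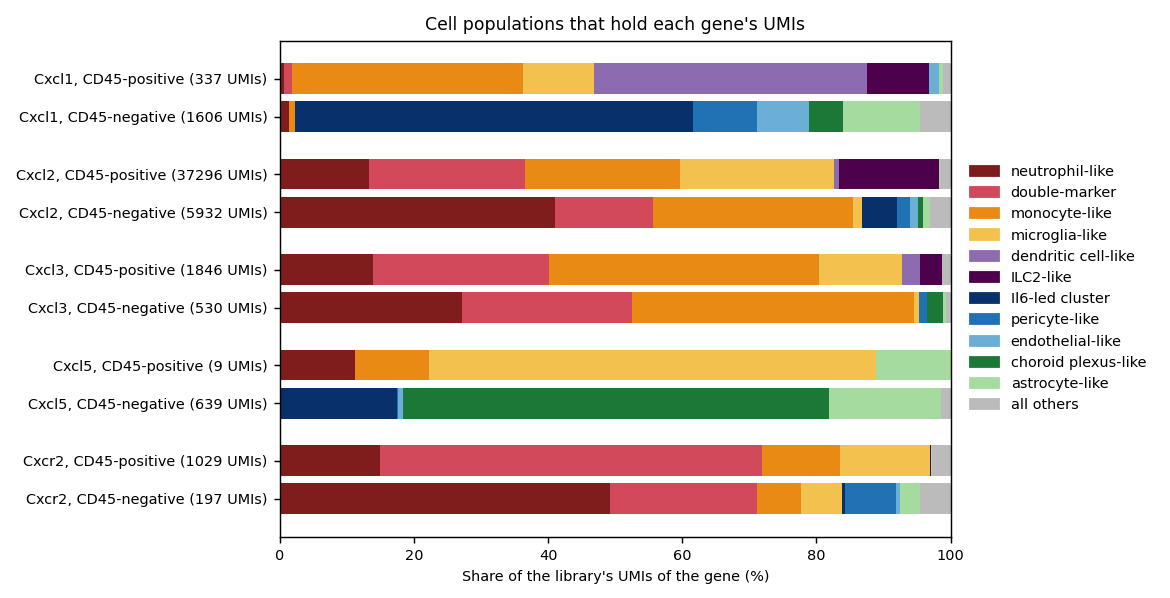
Share of each gene's UMIs held by each cell population, with the CD45-positive bar above the CD45-negative bar for each gene and the UMI total beside it. In the CD45-negative library the Il6-led cluster holds 59.3% of Cxcl1 and choroid plexus-like cells hold 63.5% of Cxcl5, while leukocytes hold most of Cxcl2, Cxcl3 and Cxcr2.

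Free RNA gives UMIs in cells that do not make a transcript, so 2 populations that should lack these genes set a background. In the CD45-positive library, T cell-like cells (2529 cells, median 4697 UMIs) had Cxcl2 at 24.5 CPM (21.9 to 27.3), with a UMI in 9.81% of cells. After every cell was thinned to 1000 UMIs the share was 2.66%. Their Cxcl3 was at 1.09 CPM, Cxcr2 at 0.777 CPM and Cxcl1 at 0.155 CPM. In the CD45-negative library, neuroblast-like cells (1209 cells, median 7613 UMIs) had Cxcl1 at 1.96 CPM, Cxcl2 at 1.56 CPM, Cxcl5 at 0.489 CPM and Cxcr2 at 0.196 CPM, and 0 Cxcl3 UMIs.

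Cxcl1, a ligand with known vascular and stromal sources, was concentrated in the Il6-led cluster. The cluster had Cxcl1 at 1676 CPM (1571 to 1786) and held 59.3% of the library's Cxcl1 UMIs. It ranked first among CD45-negative populations of at least 50 cells for Cxcl1, Cxcl2 and Cxcl5, and 4.99% of 17254 genes were highest there. For Cxcl5 it did not differ beyond counting error from choroid plexus epithelial-like cells, with a ratio of 1.09 (0.877 to 1.35). A Cxcl1 UMI was present in 28.5% of the Il6-led cells, at a median of 1148.5 UMIs per cell. Among those deep enough to be thinned to 1000 UMIs the share was 32.3%. The share in neuroblast-like cells was 1.24%, and 0.168% after thinning. The 10 richest cells held 79.8% of the cluster's Cxcl1 UMIs, 216 of them in 1 cell, and without those 10 cells the level was 397 CPM, still above every other CD45-negative population of at least 50 cells. The level over pericyte-like cells was 47.2-fold (39.8 to 56.3), where 11.1% of 11111 genes were at least 2-fold higher in the Il6-led cluster. With all barcodes or with doublets kept, the Il6-led cluster grew to 536 and 520 cells with Cxcl1 at 395 and 390 CPM.

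Within the Il6-led cluster, Cxcl1 lay in the deeper cells. A subcluster of 61 cells with a median of 6934 UMIs, with Csf3, Postn and Ccl2 among its leading genes, had Cxcl1 at 1963 CPM (1836 to 2096), a Cxcl1 UMI in 59.0% of cells, Il6 at 1743 CPM and Il11, a cytokine of the IL-6 family, at 1071 CPM. It held 891 of the cluster's 952 Cxcl1 UMIs. A Ptx3-led subcluster of 55 cells with a median of 916 UMIs had Cxcl1 at 836 CPM, and a Perp-led subcluster of 56 cells with a median of 685 UMIs at 66.9 CPM. The summed level of the 10 pericyte markers was 6658 CPM in the 61 deeper cells, 9659 CPM in the Ptx3-led cells and 30931 CPM in the Perp-led cells, against 29993 CPM in pericyte-like cells. The 9 fibroblast markers summed to 3159, 1269 and 379 CPM in the same order, against 9004 CPM in fibroblast-like cells.

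Cxcl2 was found in the same cells of the Il6-led cluster. Its level there was 544 CPM (485 to 608), the highest among CD45-negative populations of at least 50 cells. With all barcodes or with doublets kept it was 131 and 129 CPM. At Leiden resolution 0.5, where the cluster was not found, microglia-like cells were highest, and with each library clustered alone a cluster with microglia markers that stayed unnamed was, at 3889 CPM against 490 CPM in the Il6-led cluster. Of the 49 cells with a Cxcl1 UMI, 23 also had Cxcl2 (46.9%, 32.5 to 61.7), against 1.63% of the 123 cells without Cxcl1. After thinning the shares were 54.8% and 0%. Il6, the cytokine that names the cluster, was present in 65.3% of the cells with Cxcl1 and 17.9% of those without, or 54.8% and 21.5% after thinning. Cxcl3 had 0 UMIs in the whole cluster, which allows up to 1.20 Cxcl3 UMIs per 100 Cxcl2 UMIs by the 95% interval. Cxcl5 reached 194 CPM in the cluster, but its 110 UMIs lay in 4 cells, 97 of them in 1.

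**Figure D2:**
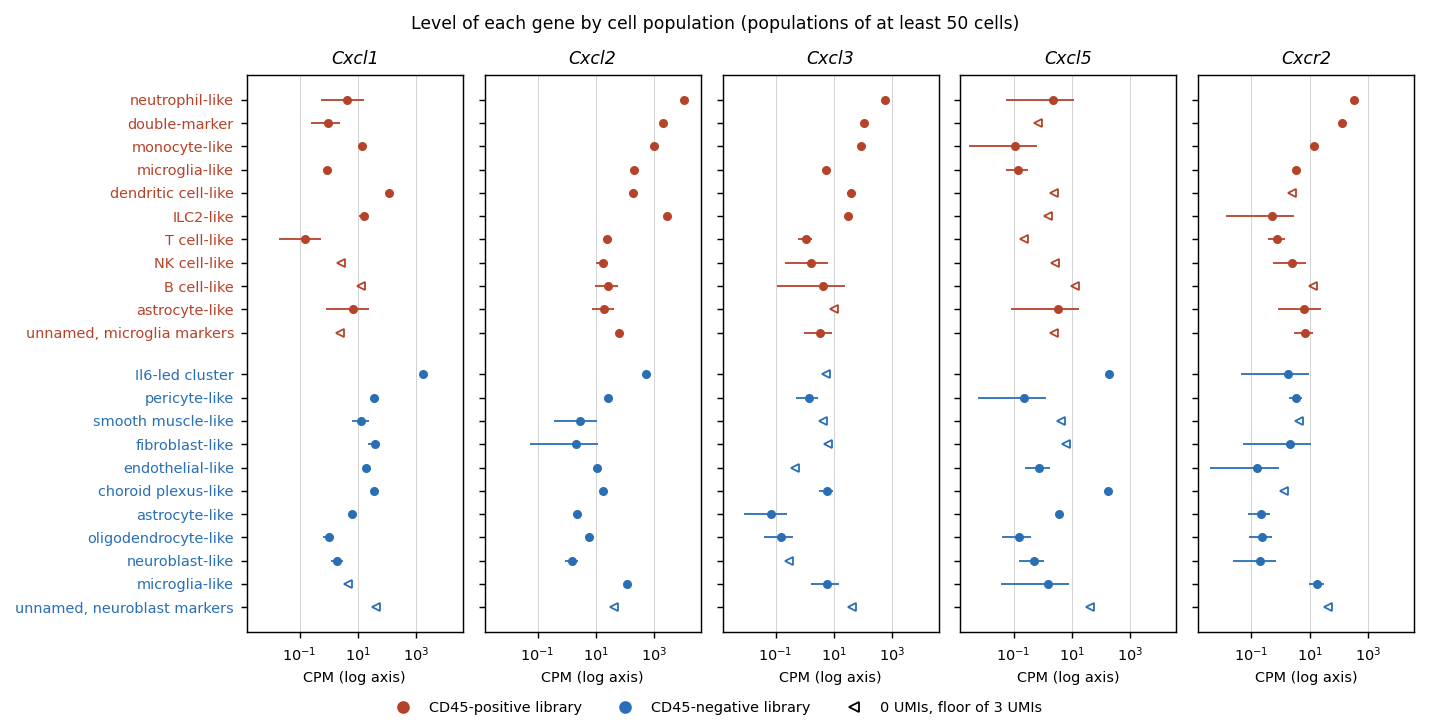
Level of each gene in CPM, on a log axis, in the populations of at least 50 cells, CD45-positive above CD45-negative. Points carry exact Poisson 95% intervals and open triangles mark 0 UMIs, drawn at the floor of 3 UMIs. Cxcl1 is highest in the Il6-led cluster at 1676 CPM, and Cxcl2, Cxcl3 and Cxcr2 are highest in neutrophil-like cells, at 10809, 564 and 336 CPM.

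Below the Il6-led cluster, Cxcl1 was spread over vascular and barrier cells. Fibroblast-like cells had 37.4 CPM (22.2 to 59.2), choroid plexus epithelial-like cells 35.8 CPM (28.5 to 44.4) and pericyte-like cells 35.5 CPM (30.1 to 41.5), and neighbours in this order did not differ beyond counting error. Endothelial-like cells followed at 18.9 CPM (15.7 to 22.6), smooth muscle-like cells at 13.2 CPM (6.04 to 25.1) and astrocyte-like cells at 6.35 CPM (5.46 to 7.33). Each of these levels lay above the 1.96 CPM of neuroblast-like cells, and oligodendrocyte-like cells were below it at 0.986 CPM.

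Within 3 of these cell classes Cxcl1 was uneven. Among pericyte-like cells, a cluster of 190 cells with Serping1, Saa1 and Cp among its leading genes, which encode a complement inhibitor, an acute-phase protein and ceruloplasmin, had Cxcl1 at 112 CPM (91.4 to 136) in 14.2% of cells. This was 6.50-fold (4.03 to 11) over an Abcc9-led cluster of 268 pericyte-like cells at 17.3 CPM. No ratio was taken to the other pericyte-like clusters. Among astrocyte-like cells, the 645 CD45-negative cells led by Ptx3 and Gfap, a pentraxin and the filament protein of reactive astrocytes, had Cxcl1 at 33.2 CPM (27.6 to 39.7), 16.9-fold (10.8 to 27.6) over the Agt-led cluster at 1.97 CPM and 13.2-fold (8.81 to 20.2) over the Cspg5-led cluster at 2.52 CPM. Over the Aldoc-led cluster, at 5.90 CPM from 8 UMIs, the ratio was 5.63 (2.77 to 13.3). Few Ptx3-led cells carried this level: 39 had a Cxcl1 UMI and 606 had none, and after thinning 14 had one and 618 had none. The Agt-led level is that of neuroblast-like cells. The same Ptx3-led astrocyte-like cells had Cxcl2 at 2.72 CPM and Cxcl5 at 3.00 CPM, and neither differed from the Agt-led cells beyond counting error, with ratios of 1.18 (0.509 to 2.51) and 0.715 (0.335 to 1.39). The Cxcl2 CPM was lower in the Ptx3-led cells than in the Aldoc-led cells, at 7.38 CPM, with a ratio of 0.369 (0.138 to 0.988). Each of these clusters had 10 Cxcl2 UMIs in 645 CD45-negative cells. The medians were 4672 UMIs per cell in the Ptx3-led and 1681 in the Aldoc-led cells. The part of depth in this Cxcl2 ratio, and in the Cxcl1 ratio to the Aldoc-led cells, was not tested.

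Among endothelial-like cells, the 288 cells with Csf3, Sele and Selp among their leading genes, a neutrophil growth factor and the selectins on which leukocytes roll, had Cxcl1 at 31.0 CPM (23.4 to 40.1) and Cxcl2 at 20.1 CPM. The 218 cells led by Gpr182 had Cxcl1 at 38.7 CPM (27.5 to 52.9), and the 458 cells led by Tfrc, with the barrier transporter Slc22a8 among the next, had 2.37 CPM (0.768 to 5.52). Few cells carried these levels, 13 of the 288 and 10 of the 218, and the 5 richest held 84.2% and 87.2% of the UMIs. The other 4 endothelial-like subclusters lay between 0 and 19.8 CPM. Cxcl1 and Cxcl2 were found together here as in the Il6-led cluster: 33.3% of the 39 endothelial-like cells with Cxcl1 also had Cxcl2, against 1.15% of the 1389 without. Thinned, these shares were 29.4% of 17 cells and 0.557% of 1257 cells. Ackr1, a venous receptor that binds these chemokines without signalling, was at 368 CPM in the Sele- and Selp-high cells and 7.94 CPM in the Gpr182-led cells.

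In the CD45-positive library Cxcl1 was rare. Dendritic cell-like cells were highest at 114 CPM, as they were for 5.34% of 14783 genes, but all 137 of their UMIs lay in 2 cells of the Ccr7- and Ccl22-high cluster, 97 in 1 of them. ILC2-like cells had 15.7 CPM (10.7 to 22.3) and monocyte-like cells 13.5 CPM, with a Cxcl1 UMI in 5 and 12 cells. Microglia-like cells had 0.889 CPM (0.623 to 1.23), with a UMI in 12 of 3339 cells.

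Cxcl2, the ligand best known from myeloid cells, was highest in neutrophil-like cells. The 121 CD45-positive neutrophil-like cells had Cxcl2 at 10809 CPM (10509 to 11115), with a UMI in 92.6% of cells, or 86.2% after thinning, and a median of 21.5 UMIs in the cells that had any. They held 13.2% of the library's Cxcl2 UMIs. ILC2-like cells followed with 2848 CPM (2774 to 2923) and 15% of the UMIs, double-marker cells with 1993 CPM and 23.4%, monocyte-like cells with 999 CPM and 23.0%, and microglia-like cells with 213 CPM and 23.1%. The first 4 of these levels each differed from the next beyond counting error. Microglia-like and dendritic cell-like cells did not, with a ratio of 1.10 (0.962 to 1.25). Dendritic cell-like cells were at 194 CPM, 144 of their 233 UMIs in 1 cell, and NK cell-like cells at 17.2 CPM and B cell-like cells at 25.9 CPM lay at the T cell-like background. Neutrophil-like cells had the highest level among CD45-positive populations for 3 of the 5 genes, Cxcl2, Cxcl3 and Cxcr2, and 8.50% of 14783 genes had their highest level there. That rank is over populations of at least 50 cells and was lost under 4 other clusterings, in which at most 36 cells were named neutrophil-like. At resolution 0.5 the 85 Slpi-led cells, unnamed, were highest in Cxcl2 and Cxcl3. With each library clustered alone or with no split of clusters, ILC2-like cells were highest in Cxcl2, and with the 5 genes allowed among the variable genes double-marker cells were. In these 3 double-marker cells were highest in Cxcl3, and in all 4 in Cxcr2.

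ILC2-like cells, tissue lymphocytes known for type 2 cytokines, had a Cxcl2 level 116-fold (104 to 131) above T cell-like cells, where 7.45% of 11303 genes were at least 2-fold higher in ILC2-like cells. A Cxcl2 UMI was present in 43.3% of the 252 cells, and in 29.8% after thinning. The signal followed subclusters. In 121 cells with Apoe, Wfdc17 and Mrc1, genes known from macrophages, among their leading genes against the other ILC2-like cells, Cxcl2 was at 3226 CPM (3103 to 3353) in 56.2% of cells. In 55 cells with Il13, Csf2 and Il5 among their leading genes, Cxcl2 was at 4617 CPM (4454 to 4785) in 33 of 55 cells. Both subclusters carried Calca, the gene of a neuropeptide, at 8565 CPM in the 121 and 10763 CPM in the 55 cells, and the type 2 regulator Gata3, at 833 and 696 CPM. In 76 cells led by Trdc and Il17a, markers of gamma delta T cells that make interleukin 17, Cxcl2 was at 19.3 CPM (9.27 to 35.6) in 8 of 76 cells, near the level and share of T cell-like cells. Across the 252 cells, Calca was present in 88.1% of the 109 cells with Cxcl2 and 46.2% of the 143 cells without, and Il17a in 1.83% and 7.69%. Thinning gave 86.3% and 43.0% for Calca and 0% and 6.98% for Il17a. These shares pool the subclusters, which differed in Cxcl2, and were not taken within each of them.

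Markers of other cell types in the ILC2-like subclusters were measured beside this. The 13 neutrophil markers summed to 82.7 CPM in the Apoe- and Mrc1-high and 82.4 CPM in the Il13-high subcluster, against 37.8 CPM in T cell-like cells and 33583 CPM in neutrophil-like cells. The 9 monocyte markers summed to 742 and 644 CPM in them, against 2126 CPM in T cell-like cells. The T cell-like sum was the higher one and is not taken as a background for monocyte RNA. The 10 microglia markers summed to 531 and 226 CPM, against 547 CPM in T cell-like cells. The list of border macrophage markers, which holds Mrc1, was not summed, and the part of macrophage RNA in these subclusters was not tested. Cxcl3 came with few UMIs: ILC2-like cells had 1.09 Cxcl3 UMIs per 100 Cxcl2 UMIs (0.830 to 1.40), against 5.22 (4.58 to 5.92) in neutrophil-like cells and 8.70 (8.06 to 9.37) in monocyte-like cells. The 10 richest of the 252 cells held 48.2% of the Cxcl2 UMIs.

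**Figure D3:**
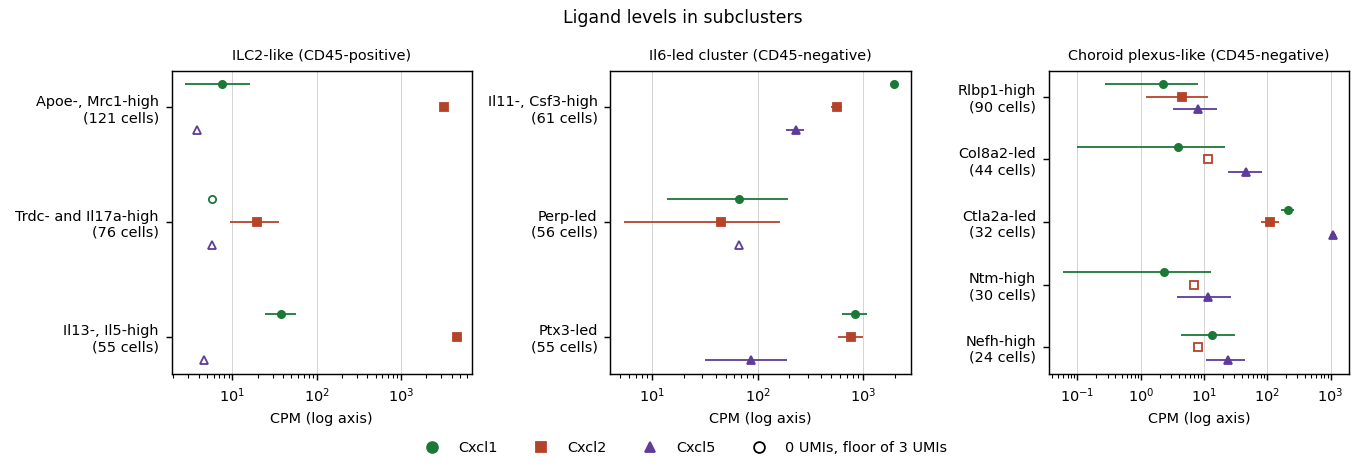
Levels of Cxcl1, Cxcl2 and Cxcl5 in CPM, on log axes, in the subclusters of 3 populations, with exact Poisson 95% intervals and open symbols for 0 UMIs at the floor of 3 UMIs. Cxcl2 is at 3226 and 4617 CPM in the Apoe- and Mrc1-high and the Il13- and Il5-high ILC2-like subclusters and 19.3 CPM in the Trdc- and Il17a-high one, and Cxcl5 reaches 1093 CPM in 1 of 5 choroid plexus-like subclusters.

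Microglia-like cells were uneven. The largest cluster, 1791 cells led by Cx3cr1, a gene of resting microglia, had Cxcl2 at 22.8 CPM, a ratio of 0.929 (0.806 to 1.07) to T cell-like cells. The 992 cells with Ccl12, Marco and Saa3 among their leading genes had 27.0 CPM, a ratio of 1.10 (0.922 to 1.32). Neither CPM was above the T cell-like one beyond counting error. Both clusters were deeper, with medians of 10070 and 7267 UMIs per cell, against 4697 in T cell-like cells. Their Cxcl2 UMIs were 515 in 1791 cells and 209 in 992 cells, against 315 in 2529 T cell-like cells. The part of free RNA in these levels was not tested, since CPM does not separate it from depth. The 345 cells led by Tnf, Atf3 and Ccl4, which encode a cytokine, a stress factor and a chemokine, had 225 CPM (213 to 237), 9.88-fold (8.91 to 11) over the Cx3cr1-led cells. A cluster of 93 cells with Ccl3 and P2ry12 among its leading genes had 2353 CPM (2291 to 2416) in 94.6% of cells and held 14.9% of the library's Cxcl2 UMIs. Its median was 23042 UMIs per cell and its neutrophil markers summed to 1339 CPM, against 174 CPM in the Tnf-led and 119 CPM in the Cx3cr1-led cells. The part of neutrophil RNA or of depth in its Cxcl2 level was not tested. A cluster of 118 cells led by Mgl2 and high in MHC class II genes had 520 CPM.

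Monocyte-like cells were uneven too. The H2-Ab1-led cluster of 220 cells, high in MHC class II genes, had Cxcl2 at 59.9 CPM (51.1 to 69.7) and Cxcl3 at 0.726 CPM. The Arg1-led cluster of 202 cells had Cxcl2 at 1175 CPM and Cxcl3 at 99.6 CPM, with microglia markers at 8433 CPM, and the Chil3-led cluster of 171 cells had Cxcl2 at 2039 CPM and Cxcl3 at 190 CPM, with microglia markers at 2123 CPM. Across monocyte-like cells, Cxcl3 was present in 20.4% of the 221 cells with Cxcl2 and 2.15% of the 372 without, or 13.0% and 0.423% after thinning.

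Cxcl3, a close relative of Cxcl2, was also highest in neutrophil-like cells, with another order below them. ILC2-like cells ranked second for Cxcl2 and below double-marker, monocyte-like and dendritic cell-like cells for Cxcl3, and their ratio to monocyte-like cells was 2.85 (2.75 to 2.95) for Cxcl2 and 0.356 (0.270 to 0.463) for Cxcl3. Neutrophil-like cells had Cxcl3 at 564 CPM (497 to 637), double-marker cells 110 CPM, monocyte-like cells 86.9 CPM, and ILC2-like cells 31.0 CPM, above microglia-like cells at 5.63 CPM and T cell-like cells at 1.09 CPM. Dendritic cell-like cells had 48 UMIs in 4 cells, 37 of them in 1. Monocyte-like cells held the largest share, 40.4% of the 1846 UMIs, and 10 of the cells held 73.5% of theirs. The UMIs of Cxcl3 per 100 of Cxcl2 depend on how well each transcript is captured, and they differed between the libraries within a population: double-marker cells had 5.53 (5.04 to 6.06) in CD45-positive and 15.4 (12.7 to 18.5) in CD45-negative cells, and Chil3-led monocyte-like cells 9.31 (8.31 to 10.4) in 171 CD45-positive and 0.624 (0.128 to 1.83) in 9 CD45-negative cells. The ratio was 21.1 (15 to 29) in the Ccr7- and Ccl22-high dendritic cell-like cluster, where 3 cells held the 47 Cxcl3 UMIs. Elsewhere it was 4.44 (2.40 to 7.57) in T cell-like cells, 4.85 (3.11 to 7.25) in the Cx3cr1-led and 1.78 (1.12 to 2.68) in the Tnf-led microglia-like cells. Outside leukocytes Cxcl3 was near 0: choroid plexus epithelial-like cells had 13 UMIs in 2 cells, or 5.67 CPM, and endothelial-like, fibroblast-like, smooth muscle-like and neuroblast-like cells had 0 UMIs.

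Cxcl5, the epithelial ligand, was highest in choroid plexus epithelial-like cells and the Il6-led cluster. The 220 choroid plexus epithelial-like cells, which make cerebrospinal fluid, had Cxcl5 at 177 CPM (160 to 195) in 36 of 220 cells and held 63.5% of the library's UMIs, and the Il6-led cluster did not differ from them beyond counting error, with a ratio of 1.09 (0.877 to 1.35). After thinning the share of cells with Cxcl5 was 7.84%, against 0.0842% in neuroblast-like cells. Of the 17254 genes, 10.4% had their highest CD45-negative level in choroid plexus epithelial-like cells; for Cxcl5 these ranked second to the Il6-led cluster. The level over neuroblast-like cells was 362-fold (154 to 1122). At least 2-fold differences between these populations were common: 17.4% of 13315 genes were higher in choroid plexus epithelial-like and 43.2% in neuroblast-like cells. The 10 richest cells held 79.1% of their Cxcl5 UMIs, and without them the level was 39.5 CPM.

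Nearly all of it lay in 1 subcluster. The 32 cells with Ctla2a, Ccl2, Cldn5, Flt1 and Cxcl10 among their leading genes had Cxcl5 at 1093 CPM (985 to 1210) in 71.9% of cells, with 373 of the 406 UMIs, and also Cxcl1 at 214 CPM, Cxcl2 at 111 CPM and Cxcl3 at 38.1 CPM. In the other 4 subclusters Cxcl5 ranged from 7.93 to 46.8 CPM. The 10 endothelial markers summed to 1351 CPM in these 32 cells, against 39.8 to 70.1 CPM in the other 4 subclusters and 21740 CPM in endothelial-like cells, whose own Cxcl5 was 0.768 CPM. Their choroid plexus markers summed to 166068 CPM, within the range of the other 4 subclusters. The part of endothelial RNA in this subcluster was not tested. Cxcl1 was present in 33.3% of the 36 choroid plexus epithelial-like cells with Cxcl5 and 3.26% of the 184 without. Once thinned, 3 of the 16 cells with Cxcl5 had Cxcl1 and 0 of the 188 without.

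Cxcl5 was low in astrocyte-like cells, at 3.69 CPM (3.02 to 4.46) in 1.38% of 5228 cells. This CPM was above that of neuroblast-like cells, 0.489 CPM (0.159 to 1.14). The medians were 5234.5 and 7613 UMIs per cell, and the part of free RNA in the astrocyte-like level was not tested. The astrocyte-like clusters did not differ beyond counting error where the Ptx3-led cells were compared. The ratios were 0.994 (0.457 to 1.99) to the Cspg5-led and 0.406 (0.156 to 1.07) to the Aldoc-led cells. In the CD45-positive library, 6 of the 9 Cxcl5 UMIs lay in 1 Tnf-led microglia-like cell.

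Cxcr2, the receptor, was highest in neutrophil-like cells, at 336 CPM (285 to 393) in 34.7% of the 121 CD45-positive cells, or 20.2% after thinning. The population held 2 clusters that differed in the receptor. The S100a9-led cluster of 36 cells had Cxcr2 at 865 CPM (723 to 1026) in 88.9% of cells, or 51.5% after thinning. The Slpi-led cluster of 85 cells had Cxcr2 at 72.3 CPM (45.3 to 109) in 11.8% of cells, or 6.58% after thinning. The ratio was 12 (7.58 to 19.7), where 8.85% of 3097 genes were at least 2-fold higher in the S100a9-led cells. The ratio of Cxcl2 between the same clusters was 0.989 (0.931 to 1.05) and that of Cxcl3 1.10 (0.843 to 1.43), neither a difference beyond counting error.

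The clusters also differed in the neutrophil markers by which they were named. The 13 markers, calprotectin and granule genes among them, summed to 87062 CPM in the S100a9-led cells, with a UMI for all 13. They summed to 6961 CPM in the Slpi-led cells, with 11 of 13 present and Ngp and Camp at 0. Microglia markers summed to 1802 CPM in the S100a9-led and 2501 CPM in the Slpi-led cells, against 547 CPM in T cell-like cells. Where the clustering was changed so that the Slpi-led cells lost the neutrophil name, Cxcr2 in the cells that kept it was between 825 and 907 CPM.

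Most CD45-positive Cxcr2 UMIs, 57.0%, lay in the double-marker cells, at 134 CPM (124 to 146) in 74.0% of cells, or 12.3% after thinning. Their median was 25101 UMIs per cell, above that of every other CD45-positive population named here. They held the microglia markers at 12117 CPM, close to the 13891 CPM of the Cx3cr1-led microglia-like cells, and the neutrophil markers at 4441 CPM, against 119 CPM there, with 12 of 13 present and Ngp at 0. Of their 2 clusters, the Acod1-led one (50 cells) had Cxcr2 at 215 CPM and Cxcl2 at 5228 CPM, and the Cx3cr1-led one (104 cells) Cxcr2 at 110 CPM and Cxcl2 at 1020.5 CPM. Whether these barcodes hold 1 cell or more was not tested.

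Outside these cells Cxcr2 was low. Monocyte-like cells had 14 CPM (11.6 to 16.7), microglia-like cells 3.41 CPM, T cell-like cells 0.777 CPM and ILC2-like cells 0.507 CPM, while B cell-like and dendritic cell-like cells had 0 UMIs. In the CD45-negative library, microglia-like cells were highest among populations of at least 50 cells, at 17.9 CPM (9.26 to 31.3), with 11 of their 12 UMIs in 1 of 87 cells. Pericyte-like cells followed at 3.43 CPM, with 12 of their 15 UMIs in 1 cell, and astrocyte-like cells were at the neuroblast-like background.

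**Figure D4:**
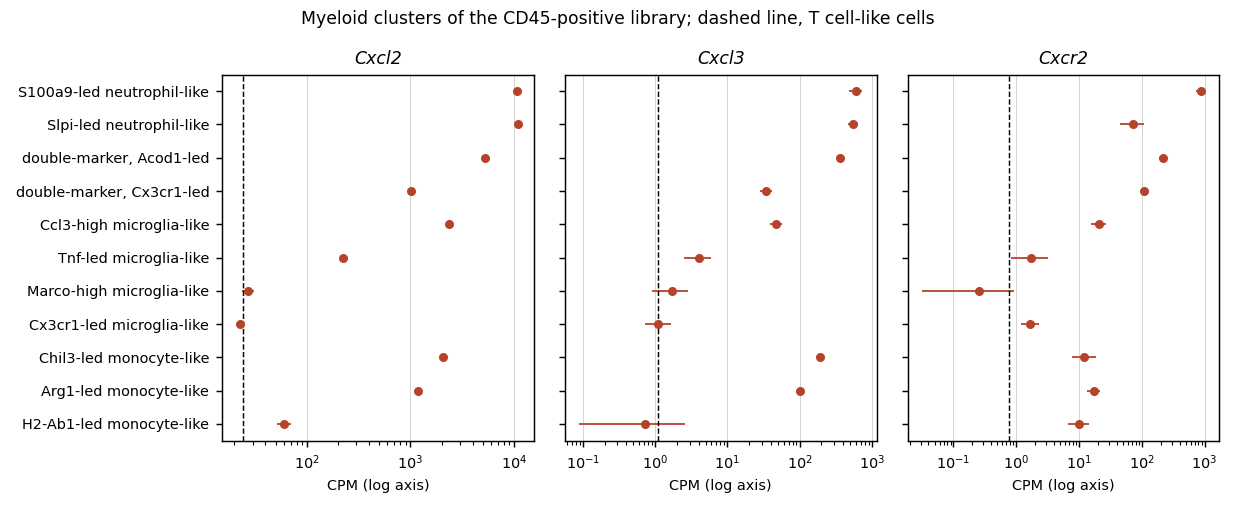
Levels of Cxcl2, Cxcl3 and Cxcr2 in CPM, on log axes, in myeloid clusters of the CD45-positive library, with exact Poisson 95% intervals and the T cell-like level as a dashed line. Cxcl2 is at 10728 and 10849 CPM in the S100a9-led and Slpi-led neutrophil-like clusters, where Cxcr2 is at 865 and 72.3 CPM, and the Cx3cr1-led and Marco-high microglia-like clusters lie at the dashed line for Cxcl2.

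The same populations were met in small number on the CD45-negative side. The 16 neutrophil-like cells there had Cxcl2 at 20804 CPM and held 41.0% of that library's Cxcl2 UMIs, the 17 monocyte-like cells had 6637 CPM and 29.8%, and the 10 double-marker cells 4174 CPM and 14.7%. Between S100a9-led cells of the CD45-negative library (13 cells) and of the CD45-positive library (36 cells), the ratio was 1.12 (0.851 to 1.47) for Cxcr2, 2.23 (2.09 to 2.38) for Cxcl2 and 2.42 (1.85 to 3.18) for Cxcl3. For Cxcl1 it was 33.6 (5.43 to 1387), from 22 UMIs, all in 1 cell, against 1 UMI. Of the 2432 Cxcl2 UMIs in CD45-negative neutrophil-like cells, 1 cell held 734.

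How UMIs were spread over cells differed between genes. The 10 richest neutrophil-like cells held 36.1% of that population's Cxcl2, 48.4% of its Cxcr2 and 61.5% of its Cxcl3. These shares were below those of Cxcl5 in choroid plexus epithelial-like cells and of Cxcl1 in the Il6-led cluster.

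**Figure D5:**
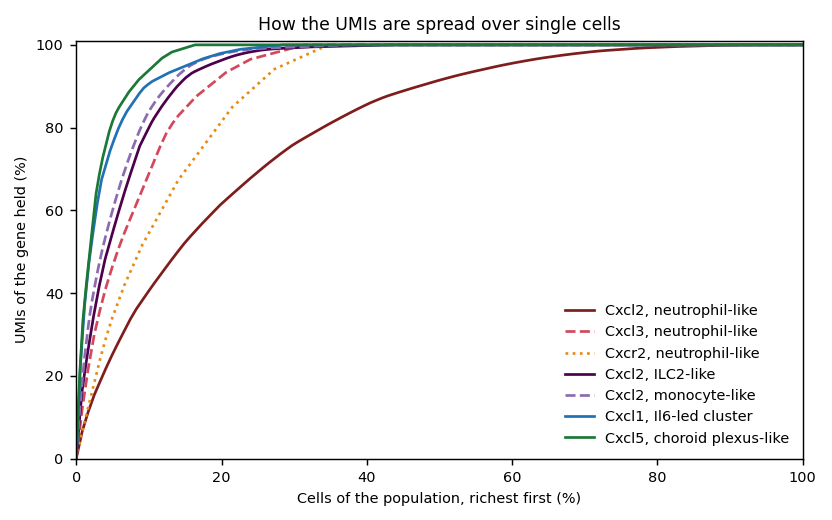
Cumulative share of a gene's UMIs (vertical axis, percent) over the cells of a population ranked from the richest (horizontal axis, percent of cells). The curve of Cxcl2 in neutrophil-like cells climbs most slowly, with 36.1% in the 10 richest cells, and those of Cxcl5 in choroid plexus-like cells and Cxcl1 in the Il6-led cluster climb fastest, with 79.1% and 79.8%.

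The other genes of the pathway were read between the libraries by counts, beside the 16.5% and 40.9% of all genes given above. Of 4 other ligands and receptors with enough UMIs, 3 were at least 2-fold higher in CD45-positive and 1 in CD45-negative cells. Ppbp, a platelet-type ligand of Cxcr2, was at 1.19 CPM in CD45-positive and 0.0242 CPM in CD45-negative cells, with its highest CD45-positive level in monocyte-like cells at 9.67 CPM. Cxcr1, the sister receptor, was at 1.04 CPM in CD45-positive and 0.157 CPM in CD45-negative cells and was highest in neutrophil-like cells at 30.7 CPM. Ackr1 was at 0.352 CPM in CD45-positive and 12.4 CPM in CD45-negative cells and was highest in endothelial-like cells at 118 CPM.

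Genes that act below or beside the receptor lay mostly on the CD45-positive side. Of 9 signalling genes below Cxcr2, 7 were at least 2-fold higher there and 0 on the other side, with Rac2, a GTPase of leukocyte movement, at 401 CPM in CD45-positive and 6.87 CPM in CD45-negative cells. Of 14 other neutrophil attractants and their receptors, 12 were higher there and 1 on the CD45-negative side. Of 11 retention and adhesion genes, 7 were higher in the CD45-positive and 4 in the CD45-negative library, with Cxcl12, which holds neutrophils in the marrow, at 2.43 CPM in CD45-positive and 163 CPM in CD45-negative cells. Of 9 granule genes, 5 were higher in the CD45-positive and 2 in the CD45-negative library, and Lcn2, an iron-binding granule protein that other cells also make, was at 71.2 and 229 CPM, highest among CD45-negative populations in choroid plexus epithelial-like cells at 1416 CPM.

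Genes that induce the ligands or limit their RNA were placed beside the sources. Of 14 inducers and their receptors, 9 were higher in the CD45-positive and 3 in the CD45-negative library. Il1b, a cytokine that induces these ligands, was at 267 CPM in CD45-positive and 25.4 CPM in CD45-negative cells. Its highest level was in neutrophil-like cells, at 3526 CPM. Tnfrsf1a, a TNF receptor, was highest among CD45-negative populations in the Il6-led cluster at 261 CPM. Il17ra and Il1rap, also receptor genes, were highest on that side in microglia-like cells at 148 CPM and oligodendrocyte-like cells at 247 CPM. Of 14 NF-kB targets and feedback genes, 9 were higher in the CD45-positive and 1 in the CD45-negative library. Nfkbia, the gene of an NF-kB inhibitor, had its highest CD45-positive levels in neutrophil-like cells at 2616 CPM and ILC2-like cells at 2431 CPM. Among CD45-negative populations, Nfkbia and Ier3 were highest in endothelial-like cells, at 1056 and 653 CPM. The Il6-led cluster came next for both, at 1021 and 540 CPM. Cebpb and Cebpd, transcription factors of acute inflammation, were highest among CD45-negative populations in the Il6-led cluster, at 1919 and 2540 CPM. Of 6 mRNA decay and stability factors, 4 were higher in the CD45-positive and 0 in the CD45-negative library. Zfp36, which speeds decay of AU-rich RNAs, was highest in neutrophil-like cells at 1387 CPM. Zfp36l1 and Zfp36l2, which ranked above it by UMIs, were highest in ILC2-like cells, at 1453 and 1156 CPM.

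The genes whose levels most resembled each member were taken over the 22 populations of at least 50 cells, among 14405 genes, by Pearson's r of log2(CPM + 1). The populations share libraries and depth, and no test was made. For Cxcl1 the nearest were Chp1 (r = 0.84), the interleukin 1 receptor gene Il1r1 (0.79), Pla1a, Sphk1 and Il11. For Cxcl2 they were the lactate transporter gene Slc16a3 (0.89), Cxcl3 (0.86), Alox5, Lst1 and Slc15a3. For Cxcl3 they were Gm21188 (0.90), Wfdc17, Clec4n, Gm34084 and Clec4e. For Cxcl5 they were Steap1 (0.93), Sod2 (0.89), 3930402G23Rik, Drc3 and Gpx3. For Cxcr2 they were S100a8 (0.95), Wfdc21, Mirt2, Hp and S100a9, of which 3 are markers that named the neutrophil-like cells.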

How the data were processed

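The deposited matrices of the 2 libraries hold counts, the UMIs of each gene in each barcode, made with Cell Ranger 6.1.2 and build mm10, per the submitters' processing notes. The libraries are droplet libraries of transcript 3' ends, per the labels' protocols, so isoforms were not told apart. Barcodes with at least 500 UMIs, at least 200 genes and at most 20% mitochondrial UMIs were kept. Doublets called by Scrublet (scanpy 1.11.5) were removed, 177 CD45-positive (2.04%) and 876 CD45-negative (6.03%), at an assumed rate of 0.8% per 1000 barcodes, so doublets may remain. Both libraries were clustered together (2000 variable genes, 30 components, 15 neighbours, Leiden resolution 1, leidenalg 0.10.2), without the 5 genes and 5 related ones. Clusters with markers of several classes were split at resolution 0.5, giving 48. Names needed 3 markers of 1 of 24 lists in at least 20% of cells. The members, lists and naming rules were chosen with earlier results of these data known, and the double-marker and Il6-led rules after these clusters had been seen. The genes named are the 5 members, at most 4 per list by UMIs, the leading genes of clusters, and the 5 genes most like each member. Shares of UMIs carry no test. Levels have exact Poisson, ratios conditional binomial and shares Clopper-Pearson intervals, and the floor for a gene at 0 was 3 UMIs. Thinning to 1000 UMIs left out 814 CD45-positive and 684 CD45-negative cells. The interval and thinning code was tested on simulated counts. Gene positions are those of GENCODE M21 on GRCm38, the build also called mm10, and promoters come from RefSeq. The run of letters shown in the promoters was chosen after they were read.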

Additional observations from a re-analysis of the deposited data

How the results depend on the processing

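No paired analysis was possible because each group is 1 library and no value comes from a test. No library could be left out. No sign of a log2 ratio changed under any alternative run. The log2 scaling factor of the CD45-positive over the CD45-negative library was -0.47 by TMM and -0.52 by median of ratios, so that every ratio came out higher by that size. For CD45-positive over CD45-negative, TMM scaling gave -1.63 for Cxcl1, 3.28 for Cxcl2, 2.43 for Cxcl3 and 3.01 for Cxcr2, and median-of-ratios scaling -1.57, 3.33, 2.48 and 3.07. Without neutrophil-like cells the ratio was 3.38 for Cxcl2, 2.21 for Cxcl3 and 3.30 for Cxcr2, and without CD45-negative leukocytes 5.71, 6.34 and 5.14. Cxcl2 had 2.94 with all barcodes, 2.76 with the stricter filter (1000 UMIs, 10% mitochondrial) and 2.93 with doublets kept. Cxcl5 stayed within its interval throughout.

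Cxcl1 in the Il6-led cluster was at 395 CPM with all barcodes, 1878 CPM with the stricter filter, 390 CPM with doublets kept, 986 CPM at Leiden resolution 2, 1555 CPM with each library clustered alone and 397 CPM without the 10 richest cells. Its share of the library's Cxcl1 UMIs ranged from 57.8% to 63.6% wherever the cluster was found, which was not so at resolution 0.5. With all barcodes, doublets kept, resolution 0.5 or 2, or each library alone, choroid plexus epithelial-like cells in place of the Il6-led cluster were highest in Cxcl5. Cxcl5 in choroid plexus epithelial-like cells was at 146 CPM at resolution 0.5 and 39.5 CPM without the 10 richest cells. In neutrophil-like cells, Cxcl2 was at 11480 CPM with the stricter filter, 8020 CPM with each library alone, 9944 CPM with the 5 genes allowed among the variable genes and 8086 CPM without the 10 richest cells. Cxcl3 there was at 435 CPM with each library alone and 249 CPM without the 10 richest cells. Cxcr2 was at 865 CPM at resolution 0.5, 825 CPM with each library alone, 907 CPM with the 5 genes allowed and 199.9 CPM without the 10 richest cells. In the first 3 of these, 34 to 36 cells kept the neutrophil name, and with no split of clusters none did. Of the library ratios and population levels that were recomputed, 41 stayed within their interval and 35 did not. Of the shares of UMIs and thinned shares, 31 stayed within their interval and 15 did not. Among those 15 was the thinned share of Il6-led cells with Cxcl1, 16.9% at 500 UMIs. Levels of populations with few UMIs, Cxcl3 and Cxcr2 outside leukocytes above all, are limited by depth.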
